A study of Mus musculus with 45 samples.

Results

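Hepatic stellate cells (HSCs) are the vitamin A-storing pericytes of the liver. After injury they lose their retinoid droplets, divide and turn into the myofibroblasts that lay down scar matrix. CCl4 is a solvent that hepatocytes convert to toxic radicals, and repeated doses kill the hepatocytes around the central veins and leave fibrosis. Described here are 100 genes whose counts in sorted mouse HSCs were high after 1 week of CCl4 and back near the vehicle level after 8 weeks, called the 1-week genes. They are 100 of the 23999 genes listed.

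The 1-week genes were chosen by measured values. Counts were scaled by library total to CPM, and the level of a gene in a group was log2(mean CPM + 1). Genes with a level of at least 3 at 1 week of CCl4 numbered 10995, and 5746 of them also differed by less than 0.5 between 8 weeks and vehicle. The 100 with the highest score were then taken, where the score is the smaller of the differences of 1 week from vehicle and from 8 weeks. So the vehicle, 1-week and 8-week values are a description of what was selected on and carry no test. Rank 100 (line 9216) had a score of 0.7611 and the next gene, the first one left out (line 6297), 0.7605, so that the limit separated nearly equal genes.

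All mice were male and labelled C57BL6/J (C57BL/6JBomTac in the study's methods). CCl4 was diluted in corn oil and given by gavage for 1 week (n = 3), 4 weeks (n = 4) or 8 weeks (n = 3), and vehicle mice received corn oil for 8 weeks (n = 4). Both were given after overnight fasting. Western diet (WD) with fructose in the drinking water was fed for 12, 16 or 24 weeks (n = 4 each) and compared with chow (n = 4), with all of these mice killed at the same age. For activation in culture (IVT), sorted HSCs of healthy mice rested 2 hours in suspension (d0) or grew on plastic until d1, d4, d8 or d12 (n = 3 each). The cells were isolated from digested liver and sorted on retinoid autofluorescence, a gate that favours cells still holding retinoid. The study's methods speak of technical triplicates for the cultures and of biological replicates for the RNA, so the spread in IVT may be technical.

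Total counts per library ran from 2318311 to 7576527 in CCl4, from 2425443 to 6404105 in WD and from 3556607 to 7568415 in IVT. A count of 3, taken as the floor, was between 0.396 and 1.29 CPM, and this limit covers counting error only. The 10 most abundant genes held between 1.61% and 2.71% of the counts of any library, a share that the counting itself limits because it kept at most 3 reads per position.

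The identifiers beside the counts did not follow them, and the 1-week genes are therefore named by their rank and their line in the tables. Of 23999 identifiers, 23655 matched a mouse symbol. Lines listed as olfactory and vomeronasal receptors, defensins and keratin-associated proteins, classes with little expression in liver, had a mean count of at least 10 in 55.5% of 1586 lines, against 56.4% of all lines. Of 27 lines whose identifiers belong to stellate cell, hepatocyte, macrophage, endothelial and widely expressed genes, 9 had a mean count under 1, among them 3 of 8 stellate cell genes and 1 of 6 widely expressed genes. By mean count, the median percentile among all lines was 78.9 for widely expressed, 69.0 for stellate cell and 51.0 for hepatocyte genes. It was 49.4 for endothelial and 26.9 for macrophage genes, with 4 to 8 lines in each class. Neither the stellate identity of the libraries nor the presence of other cells could be checked from these files, and what each gene does cannot be said. The order of lines was shared between the tables. The lowest rank correlation of group means between any pair of groups was 0.857 across the 23999 lines, where each line keeps its gene length in every group. Within the 1-week genes the rank correlation was 0.974 between vehicle and chow and 0.851 between vehicle and d0. No 1-week gene shared its counts with another line.

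Together, the 1-week genes took more of each 1-week library than of any other library in the series. Their summed counts were 1.37%, 1.43% and 1.29% of the total in the 1-week libraries. In vehicle they were 0.666%, 0.770%, 0.658% and 0.526%, and at 8 weeks 0.729%, 0.477% and 0.688%. The 1-week and vehicle libraries did not overlap, with group means of 1.37% ± 0.0702 (SD, n = 3) and 0.655% ± 0.1002 (SD, n = 4) and a ratio of 2.09. This follows from the choice of genes. In bulk RNA, more of a gene per cell and more of the cells that hold it cannot be told apart.

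**Figure D1:**
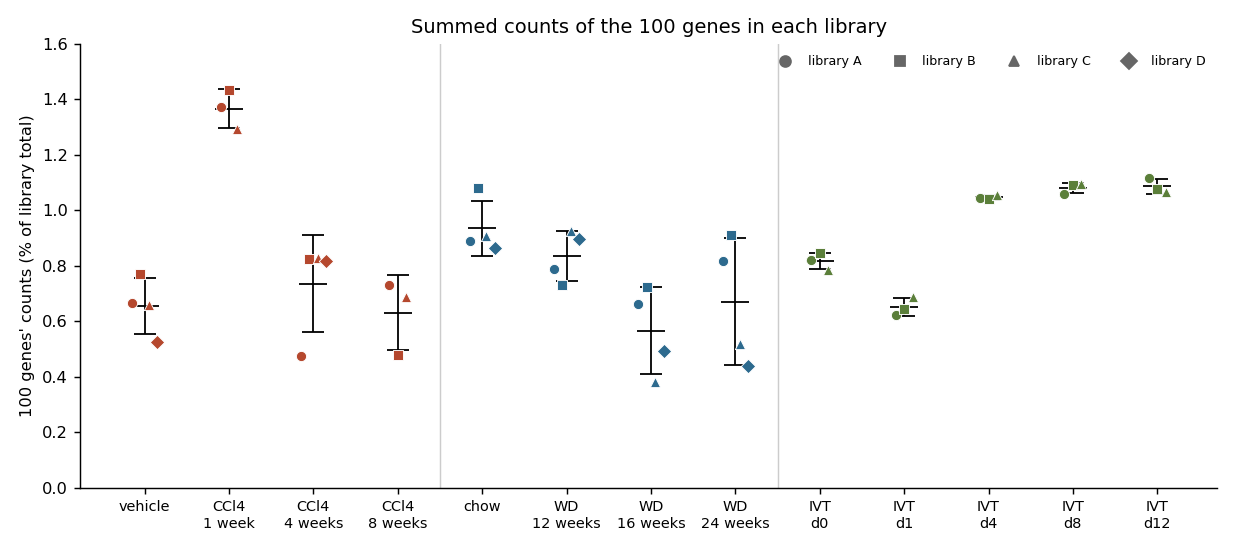
Summed counts of the 100 1-week genes as percent of each library's total (y axis) in the 13 groups (x axis), with 1 point per library, its shape giving the replicate letter, and lines for the group mean ± SD. The 3 libraries of 1 week of CCl4 lie between 1.29% and 1.43%, above all others, and the chow libraries lie between 0.864% and 1.08%, above the vehicle libraries.

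The rise from vehicle to 1 week was moderate for most of the 1-week genes. On the log2 scale it ran from 0.77 to 3.12 with a median of 1.00, a 2.00-fold difference. It was at least 1 for 50 genes, at least 1.5 for 11 and at least 2 for 4. The difference between 1 week and 8 weeks had a median of 1.08 and a maximum of 3.39, and the difference of 8 weeks from vehicle a median of -0.04. Over the 10995 genes at the level minimum, the median difference of 1 week from vehicle was 0.02. With CPM scaled by TMM (trimmed mean of M values, which corrects for composition) the median rise of the 1-week genes was 1.01.

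For 97 of the 100 genes every 1-week library was above every vehicle library, where 25.5% of the genes at the level minimum showed this, and for 97 every 1-week library was above every 8-week library, against 27.2%. Both shares are fixed by the choice of genes and nothing is read from them. The 3 libraries of 1 week were close to each other: they lay within 1.5 times for 82 genes, and the highest was more than 1.5 times the next for 1 gene. The median coefficient of variation of CPM was 12.4% at 1 week, 23.9% in vehicle, 28.8% at 4 weeks and 25.6% at 8 weeks. Library C, the smallest of the 3 with 4674910 counts, was the lowest for 78 genes, and library B was the highest for 51.

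The smallest library also had the lowest summed share in vehicle, at 4 weeks and at 8 weeks. The part of depth in the 1-week values was not tested.

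Levels varied widely among the 1-week genes. Mean CPM in vehicle ran from 2.15 to 1044 with a median of 32.7, and at 1 week from 8.03 to 1831 with a median of 69.6. The 12 genes with at least 100 CPM in vehicle had a median rise of 0.94, the 66 genes between 10 and 100 CPM one of 0.95, and the 22 genes under 10 CPM one of 1.17. CPM is not adjusted for gene length, so levels are not compared between genes. The gene with the most counts, rank 93 (line 12444), was picked after its values were seen and held 15.9% of the summed CPM in vehicle. It was at 949, 1167, 1072 and 990 CPM in vehicle and at 1690, 1802 and 2000 CPM at 1 week. Without it the ratio of the summed CPM between 1 week and vehicle was 2.15.

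The highest rise belonged to rank 1 (line 2247). It had 3.05, 3.58, 1.27 and 0.694 CPM in vehicle and 30.8, 32.8 and 15.8 CPM at 1 week. At 4 weeks it was at 2.48, 0.659, 7.87 and 3.61 CPM and at 8 weeks at 0.858, 3.02 and 1.00 CPM. Every 1-week library was thus above every other CCl4 library, although the values outside 1 week rest on few counts. The vehicle libraries of rank 2 (line 18241) held 74.8, 87.8, 77.2 and 42.7 CPM and its 1-week libraries 455, 501 and 304 CPM. By 4 weeks it was at 46.0, 74.3, 155 and 85.6 CPM, with library C the highest, and by 8 weeks at 108, 51.3 and 86.1 CPM. Rank 3 (line 8300) was still above vehicle at 4 weeks, on average. It had 12.4, 24.3, 18.99 and 18.7 CPM in vehicle, 112, 114 and 78.9 CPM at 1 week and 22.6, 22.4, 52.8 and 38.1 CPM at 4 weeks. Libraries C and D of 4 weeks were above all vehicle libraries and libraries A and B were not, and the log2 fold change (log2FC) of 4 weeks from vehicle in edgeR's quasi-likelihood fit was 0.72 ± 0.27 (SE), given with no p because the vehicle libraries were used in the choice.

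**Figure D2:**
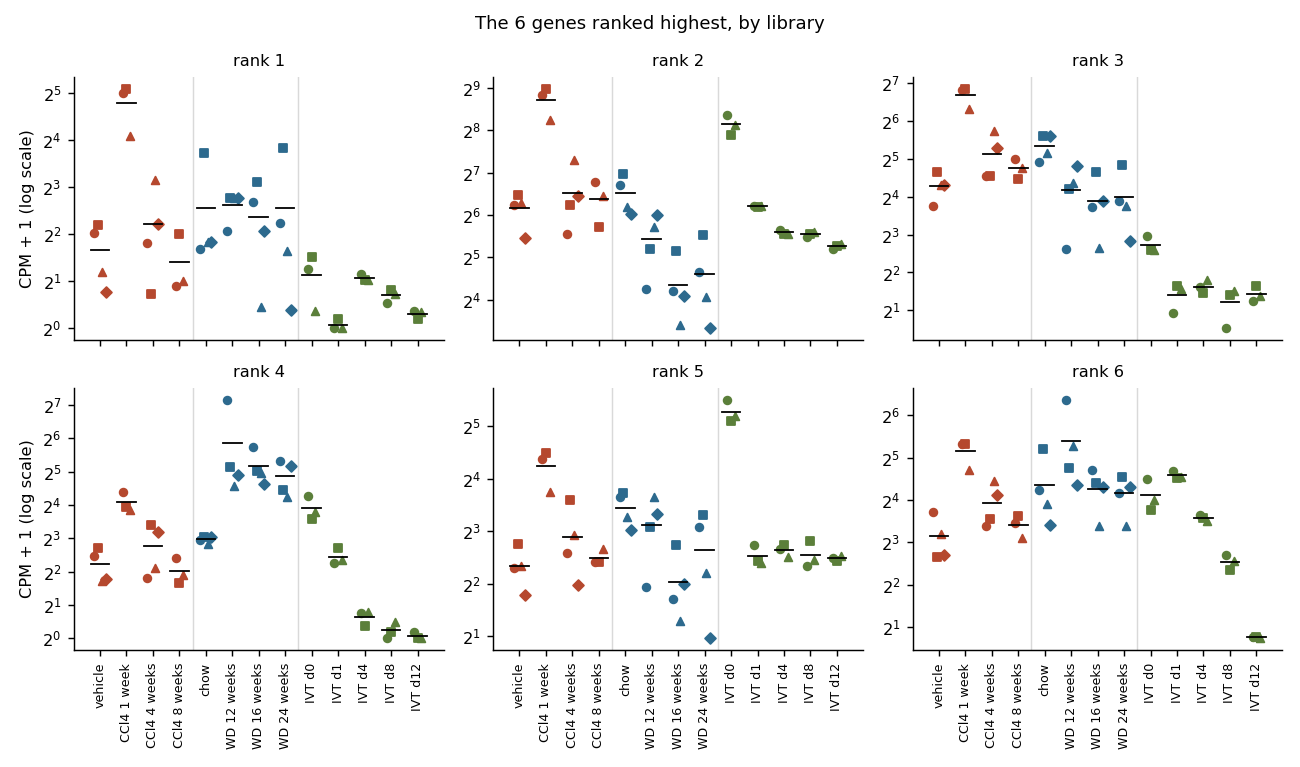
CPM + 1 on a log scale (y axis) of the 6 genes with the highest scores in each library of the 13 groups (x axis), with group means as lines and marker shapes for replicate letters. In the CCl4 groups, the 1-week libraries of all 6 genes lie above the vehicle and 8-week libraries, and the order of the WD and IVT groups differs from gene to gene.

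Ranks 4 to 8 had scores between 1.54 and 1.84. Rank 4 (line 15402) was at 4.58, 5.49, 2.32 and 2.43 CPM in vehicle and 19.8, 14.4 and 13.5 CPM at 1 week. Rank 5 (line 18866) went from 3.92, 5.72, 4.01 and 2.43 to 19.8, 21.4 and 12.4 CPM. Rank 6 (line 7854) went from 12.2, 5.25, 8.23 and 5.55 to 38.9, 39.02 and 25.03 CPM. In all of these the vehicle and 1-week libraries did not overlap. Rank 7 (line 11899) had 7.85, 12.4, 7.81 and 5.21 CPM in vehicle and 39.3, 28.8 and 28.2 CPM at 1 week. Rank 8 (line 23200) had 75.7, 80.4, 63.1 and 53.5 CPM in vehicle and 199, 224 and 176 CPM at 1 week. These too did not overlap. Rank 10 (line 21801) had 105, 179, 58.2 and 65.6 CPM in vehicle and 290, 332 and 292 CPM at 1 week, with vehicle library B the highest of the controls.

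Rank 9 (line 8736) owes its place to 1 vehicle library. Vehicle libraries A, B and C held 0.436, 0.954 and 1.48 CPM and library D 14.2 CPM, within the range of the 1-week libraries at 17.2, 14.1 and 12.4 CPM. Its 8-week libraries held 3.09, 6.04 and 4.02 CPM. Without library D the 8-week level was 1.46 above vehicle on the log2 scale, over the limit of 0.5, and the gene would not have been chosen. In chow, WD and IVT it was at or near 0, with at most 1.33 CPM in any library.

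At 4 weeks of CCl4 most of the 1-week genes were below their 1-week level. The 4-week libraries were not used to choose the genes, but the 1-week libraries were, and genes chosen for high values there are likely to be lower in any other group, so this difference carries no test. The 4-week mean was below the 1-week mean for 98 genes, where it was for 44.6% of the genes at the level minimum and 41.6% of those meeting both conditions. Every 4-week library was below every 1-week library for 84, against 22.4% and 15.2%. Against vehicle the 4-week mean was higher for 60 genes, where it was for 57.3% of the genes at the level minimum, and the median difference on the log2 scale was 0.14, beside 0.11 for those genes. The share of the 1-week rise still present had a median of 12.97%. With CPM scaled by TMM the 4-week mean was above vehicle for 49 genes, the median share was -1.23%, and the median difference from vehicle was -0.01, beside -0.05 for the genes at the level minimum. The summed counts were 0.476%, 0.824%, 0.827% and 0.819% of the libraries, with library A far below the other 3 and below all vehicle libraries.

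The test of 4 weeks against vehicle called few of the 1-week genes. Calls needed a mean log2CPM above 2 and an FDR no higher than 0.05 in edgeR's quasi-likelihood test with Benjamini-Hochberg adjustment, given here as the edgeR adjusted p. Of 97 genes above that level, 5 rose and 9 fell, where 25.6% of all 12203 tested genes rose and 25.9% fell. Among tested genes that met both conditions of the choice, 7.4% rose and 16.8% fell. Part of this low count is built in, because the choice used the vehicle libraries and asked for a return to their level at 8 weeks. The median log2FC was 0.00 for the 1-week genes and -0.02 for all genes. Scaling by library totals in place of TMM moved the median of all genes to 0.14 and that of the 1-week genes to 0.15, and gave 12 rises and 3 falls (32.7% and 19.1% of all genes). DESeq2 gave 8 rises and 7 falls (27.8% and 25.4% of all genes). Leaving out 1 library at a time gave 4 to 10 rises and 4 to 17 falls (23% to 26.4% and 22.6% to 26.6% of all genes). No direction is read from these counts.

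Ranks 81 and 99 were the only 1-week genes with a 4-week mean above their 1-week mean, and both rest on library B of 4 weeks. With it their 4-week means were 87.8 and 174 CPM, beside 80.4 and 151 CPM at 1 week, and without it they were 63.4 and 146 CPM, below the 1-week means. With CPM scaled by TMM rank 81 was also below its 1-week mean. Rank 99 (line 14254) was at 177, 258, 101.5 and 161 CPM at 4 weeks against 70.6, 82.1, 55.7 and 48.2 CPM in vehicle, with no overlap. Its log2FC from vehicle was 1.29 ± 0.26 (SE). Rank 81 (line 17898) was at 55.1, 161, 51.6 and 83.4 CPM against 35.1, 48.4, 28.3 and 19.1 CPM, with a log2FC of 1.27 ± 0.34 (SE). A smaller rise was called for rank 72 (line 9385), from a vehicle mean of 7.003 to a 4-week mean of 12.6 CPM (log2FC 0.69 ± 0.22, SE). These rises, like that of rank 3, are measured from vehicle values that the choice of genes favoured when low, so no p is given for them.

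The lowest log2FC of 4 weeks from vehicle among the called genes belonged to rank 42 (line 13477), and like the rises the values of these genes are given with no p. It held 20.1, 10.3, 8.86 and 9.02 CPM in vehicle and 3.58, 4.40, 7.66 and 7.21 CPM at 4 weeks. Its log2FC was -1.21 ± 0.31 (SE), and the groups did not overlap, with vehicle library A far above the other 3. Rank 15 (line 11896) had a vehicle mean of 8.22 and a 4-week mean of 5.26 CPM (log2FC -0.79 ± 0.22, SE).

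In WD, more of the 1-week genes fell than rose against chow at 16 weeks, and many were called in neither direction. At 12 weeks about as many rose as fell. The number of falls at 24 weeks moved from 24 to between 12 and 41 when 1 library was left out. The summed counts of the 1-week genes were 0.888%, 1.08%, 0.907% and 0.864% of the chow libraries. They were 0.787%, 0.732%, 0.926% and 0.895% at 12 weeks, 0.664%, 0.724%, 0.383% and 0.492% at 16 weeks and 0.818%, 0.910%, 0.517% and 0.438% at 24 weeks. All 16-week libraries were below all chow libraries, and the 12-week and 24-week libraries overlapped with chow. The highest WD group was chow for 62 of the 100 genes, where it was for 39.5% of the 13510 genes that passed the filter. The lowest was 16 weeks for 71 genes, where it was for 32.5% of all.

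At 16 weeks of WD, 44 of 97 tested 1-week genes fell and 6 rose, where 26.8% of all tested genes fell and 30.3% rose. At least 2-fold were 35 of the falls and 6 of the rises, against 13% and 19.5% of all tested genes. The median log2FC was -0.83 for the 1-week genes and 0.02 for all genes. At 24 weeks 24 of 97 fell and 8 rose, against 18.3% and 26.4% of all genes, with a median of -0.53 beside 0.03. At 12 weeks 8 of 99 fell and 9 rose, against 7.36% and 20.6%, with a median of -0.26 beside -0.01. With only the chow and 12-week libraries in the fit, 23 fell at 12 weeks (13.8% of all genes) and 9 rose. Scaling by library totals in place of TMM gave 44, 25 and 9 falls at 16, 24 and 12 weeks, beside 26.3%, 17.9% and 8.47% of all genes.

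**Figure D3:**
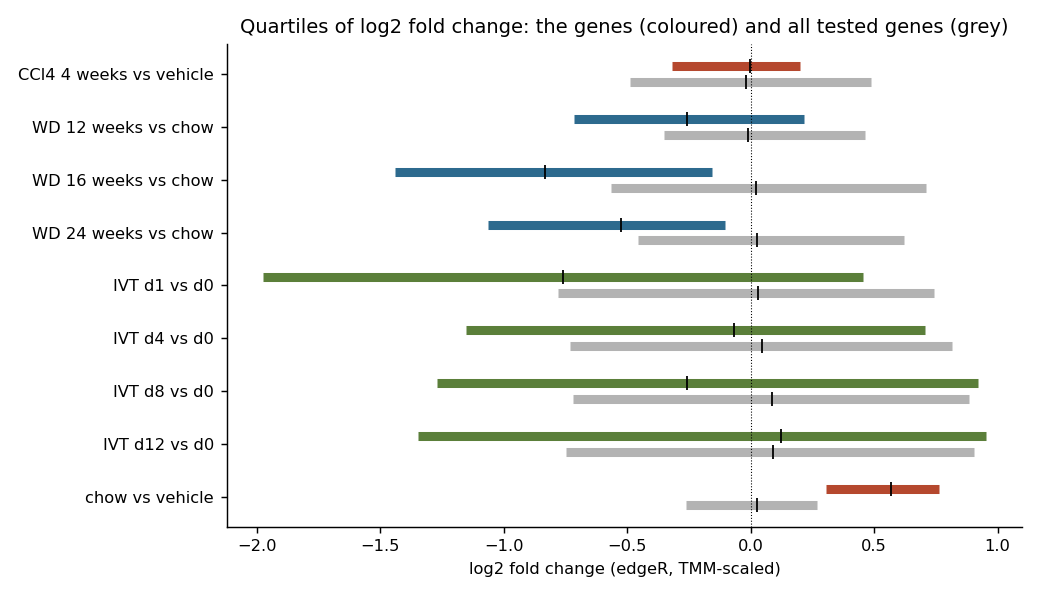
Median (tick) and quartiles (bar) of the edgeR log2 fold change (x axis) in 9 comparisons (y axis), for the tested 1-week genes (coloured by experiment, with red for comparisons against vehicle) and for all tested genes (grey). The 1-week genes lie lowest against all genes in WD at 16 weeks (median -0.83) and in IVT at d1 (median -0.76), and lie above all genes in chow against vehicle (median 0.57), where the choice of genes favoured low vehicle values.

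Libraries C and D of 16 and 24 weeks stood apart from A and B. Both were below both of the others for 58 of the 1-week genes at 16 weeks and for 72 at 24 weeks, where 27.8% and 28.6% of all genes that passed the filter showed this order. At both times C and D held more counts in total than A and B, from 4737971 to 6404105 against 3563264 to 4643716. In chow the count was 49 against 25.6%. At 12 weeks the order was the opposite: both C and D were below both of the others for 4 genes, against 14.7%, and above both for 53, against 31.7%. With C and D of 16 and 24 weeks left out, a choice made after their values were seen, 31 genes fell at 16 weeks (20.1% of all genes) and 3 at 24 weeks (8.71% of all genes). The median log2FC was then -0.60 at 16 weeks and -0.17 at 24 weeks. This left 2 libraries at each of these times beside 4 of chow. Leaving out 1 library at a time gave 12 falls at 24 weeks without C, without D or without chow B (11.2%, 12.7% and 12.7% of all genes), 15 without chow A (13.3%) and 41 without 24-week B (21.2%), so the count at 24 weeks depended on libraries of both groups. At 16 weeks it gave 29 falls without chow B (22.1% of all genes) and between 33 and 48 otherwise.

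A few 1-week genes were higher in WD than in chow at all 3 times. Rank 42 was at 28.0, 13.5, 14.6 and 26.6 CPM in chow. It was at 580, 334, 365 and 287 CPM at 12 weeks, 480, 292, 344 and 327 CPM at 16 weeks and 372, 225, 302 and 356 CPM at 24 weeks. Every WD library was far above every chow library. The log2FC was 4.30 ± 0.33 at 12 weeks, a 19.7-fold change (SE, edgeR adjusted p = 7.02e-07), 4.12 ± 0.33 at 16 weeks (edgeR adjusted p = 2.39e-07) and 3.91 ± 0.32 at 24 weeks (edgeR adjusted p = 4.05e-07). In CCl4 this gene had a mean of 29.9 CPM at 1 week and was below vehicle at 4 weeks.

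Rank 4 was at 6.66, 7.30, 6.13 and 7.29 CPM in chow and at 142, 34.2, 22.6 and 28.6 CPM after 12 weeks of WD. Its log2FC was 3.14 ± 0.55 (SE, edgeR adjusted p = 0.000407), with library A far above the others. At 24 weeks it was still at 39.2, 20.9, 17.9 and 34.98 CPM, above all chow libraries (log2FC 2.03 ± 0.54, SE, edgeR adjusted p = 0.00735). The same library A was far above the others for rank 21 (line 5305), with 204, 51.5, 58.4 and 39.1 CPM at 12 weeks against 9.996, 15.2, 10.98 and 14.03 CPM in chow. That gene had a log2FC of 2.89 ± 0.47 at 12 weeks (SE, edgeR adjusted p = 0.000197) and of 1.86 ± 0.46 at 24 weeks (SE, edgeR adjusted p = 0.00438). Library A also stood out for other called rises at 12 weeks. Rank 33 (line 15730) had 1255 counts in A against 156, 362 and 345 in B, C and D. Rank 46 (line 7836) had 382 against 38, 86 and 98, with B the smallest library. The study speculates that mRNA of disrupted hepatocytes entered the WD libraries. Its part in these rises was not tested.

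Of the genes repressed by WD, rank 68 (line 6005) fell furthest at each time. It was at 43.5, 57.1, 40.1 and 48.5 CPM in chow, at 9.26, 12.8, 20.7 and 21.3 CPM at 12 weeks and at 7.92, 11.2, 2.16 and 4.37 CPM at 16 weeks. At 24 weeks it was at 16.0, 11.6, 4.22 and 2.97 CPM. No WD library reached the lowest chow library. The log2FC was -1.52 ± 0.49 (SE, edgeR adjusted p = 0.0298), -2.90 ± 0.53 (edgeR adjusted p = 0.000398) and -2.45 ± 0.51 (edgeR adjusted p = 0.00143) in this order of time. The call at 12 weeks was lost without chow B, without chow D, without 12-week A and without 12-week B.

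Next in size among the falls at 12 weeks, both without overlap between groups, were ranks 95 and 51. Rank 95 (line 3627) went from a chow mean of 29.8 to 15.9 CPM and rank 51 (line 10381) from 71.9 to 39.8 CPM. Both calls were lost without chow B, and that of rank 95 also without chow A and with only the compared groups in the fit. At 16 weeks rank 38 (line 11979) went from 96.6, 147, 76.4 and 61.6 CPM to 24.7, 34.5, 3.79 and 15.5 CPM. Rank 24 (line 8252) went from a chow mean of 15.8 to 3.33 CPM at that time, a 4.77-fold fall (edgeR adjusted p = 0.00516). Rank 2, with one of the highest rises in CCl4, was at 104, 124, 72.3 and 64.0 CPM in chow and at 24.1, 45.0, 15.6 and 9.06 CPM at 24 weeks of WD. It fell by 1.96 ± 0.49 on the log2 scale (SE, edgeR adjusted p = 0.00506). Rank 60 (line 5954) fell from a mean of 6.47 to 1.74 CPM at 24 weeks (edgeR adjusted p = 0.015), a call lost without chow A, without chow B and without libraries C and D.

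**Figure D4:**
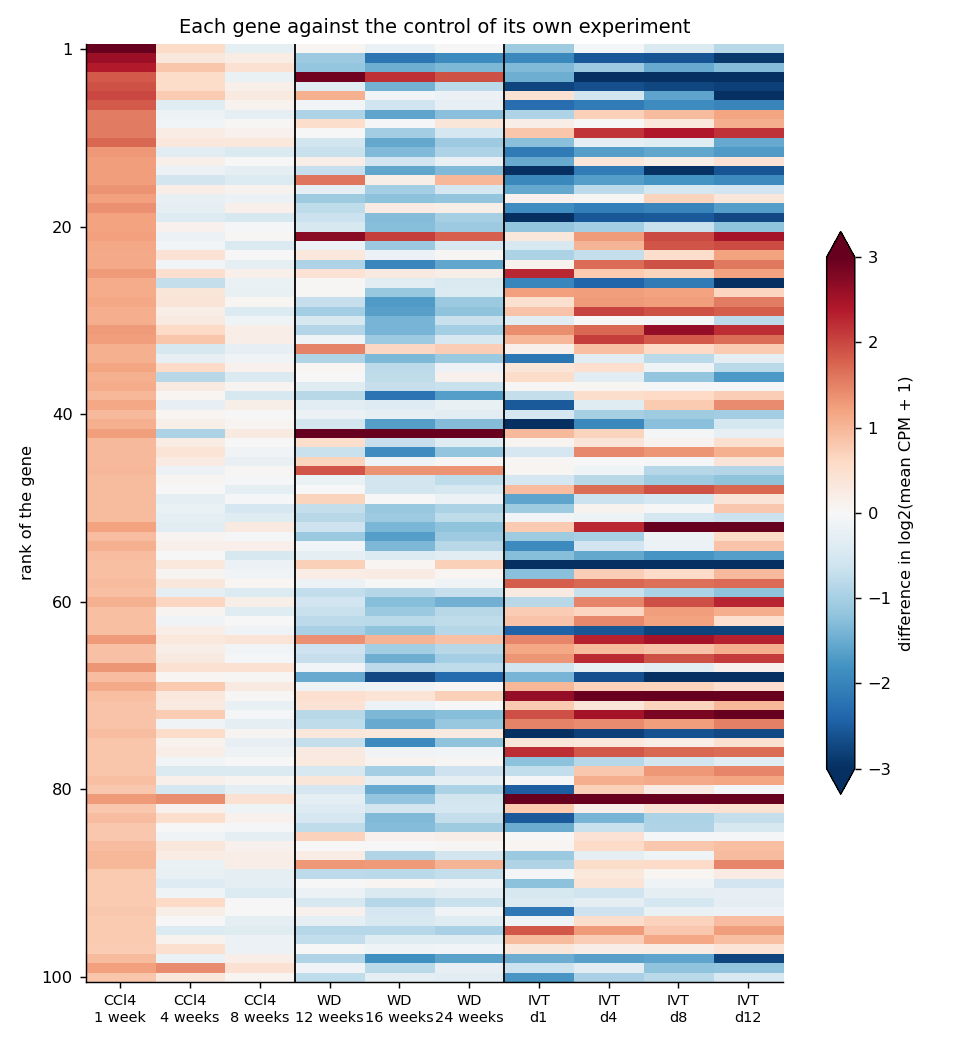
Difference in log2(mean CPM + 1) of each of the 100 1-week genes, in rows by rank, between each group (columns) and the control of its own experiment (vehicle, chow or d0), with red for higher and blue for lower and colours saturating at a difference of 3. The 1-week column is red throughout by the choice of genes, the 4-week and 8-week columns are pale, the 16-week WD column is mostly blue, and the IVT columns hold both colours.

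In culture, the 1-week genes changed in both directions, as all tested genes did, and their falls outnumbered their rises most at d1. Their summed counts were 0.822%, 0.845% and 0.786% at d0, 0.621%, 0.646% and 0.687% at d1 and 1.04%, 1.04% and 1.06% at d4. They were 1.06%, 1.09% and 1.09% at d8 and 1.12%, 1.08% and 1.07% at d12. All d1 libraries were below all d0 libraries, and all later libraries above them. The sum is weighted by abundant genes. Rank 44 (line 10949), picked after its values were seen, held 4427, 3686 and 2878 of the 41039, 45441 and 27941 summed counts at d0. At d4 it held 15336, 15028 and 15045 of 76673, 71991 and 72028. The gene with the most counts in vehicle, rank 93, had means of 1602 CPM at d0, 361 CPM at d1, 1041 CPM at d4, 1395 CPM at d8 and 1420 CPM at d12. It was below d0 at every later time (log2FC -2.48 ± 0.09 at d1 and -0.49 ± 0.09 at d12, SE, edgeR adjusted p = 1.03e-13 and 4.56e-05), also where the sum was above d0.

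At d1, 54 of 91 tested 1-week genes fell and 26 rose, where 39.5% of all tested genes fell and 41.2% rose. The median log2FC was -0.76 for the 1-week genes and 0.03 for all genes, and 39 falls and 10 rises were at least 2-fold, against 20.5% and 18% of all genes. At d4, 43 of 94 fell and 37 rose, against 39.1% and 42.1% of all genes. At d8, 42 of 92 fell and 35 rose, against 38.9% and 43.8%. At d12, 42 of 96 fell and 41 rose, against 39.1% and 44%. The median was -0.07 at d4 and -0.26 at d8. At d12 it was 0.12, beside 0.09 for all genes, with a range from -8.06 to 4.66. From d4 on, the shares of rises and falls under TMM scaling were thus near those of all genes. Scaling by library totals moved the median of all genes at d1 to 0.37 and at d12 to 0.41, and the counts at d1 to 46 falls and 31 rises (29.5% and 53.9% of all genes). It turned the median of the 1-week genes to 0.31 at d4 and 0.05 at d8, still below the medians of all genes under that scaling, 0.36 and 0.40. With library totals 38 of 92 fell and 44 rose at d4, against 28.9% and 53.7% of all genes. At d8 36 of 91 fell and 43 rose, against 29.1% and 54.8%, and at d12 36 of 94 fell and 49 rose, against 29.5% and 54.7%. Under that scaling the share of falls was thus above that of all genes.

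The lowest IVT group was d1 for 37 of the 100 genes, against 19.05% of the genes that passed the filter, and d0 for 34, against 47.9%. The highest was d0 for 34, against 25.5%, and d12 for 32, against 23.2%. Of the 44 genes that fell at 16 weeks of WD, 27 also fell at d1, which is 61.4% of the first list and 50.0% of the second, while 12 (27.3% of the first list) rose at d1. Among all 3281 genes that fell at 16 weeks of WD, 56.7% fell and 23.6% rose at d1, and among all 4524 genes that fell at d1, 41.1% fell at 16 weeks of WD. At d12, 20 of the same 44 genes fell (45.5%) and 19 rose (43.2%). Among all 3281 genes, 55.4% fell and 26.3% rose at d12.

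Rank 81 was the most strongly induced 1-week gene at d1 and d4, by log2FC. It was at 41.4, 50.2 and 38.5 CPM at d0, at 466, 462 and 475 CPM at d1 and at 695, 684 and 665 CPM at d12. Its log2FC was 3.09 ± 0.07 at d1 (SE, edgeR adjusted p = 5.41e-16) and 3.65 ± 0.07 at d12 (edgeR adjusted p = 3.05e-17).

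Rank 70 (line 21911) rose at all 4 times, from 32.03, 39.2 and 24.5 CPM at d0 to 306, 309 and 313 CPM at d12 (log2FC 2.94 ± 0.10, SE, edgeR adjusted p = 1.82e-14). A later rise was seen for rank 52 (line 23572), at 4.80, 2.05 and 2.81 CPM at d0, 56.5, 53.6 and 54.0 CPM at d8 and 105, 99.4 and 100.9 CPM at d12. Its log2FC at d12 was 4.66 ± 0.16 (SE, edgeR adjusted p = 3.84e-14), the highest among the tested 1-week genes. Rank 25 (line 6735) rose to a mean of 49.3 CPM at d1 from 9.49 CPM at d0 (edgeR adjusted p = 8.18e-09), and rank 72 to 31.3 CPM at d4 from 4.72 CPM (edgeR adjusted p = 3.16e-10).

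**Figure D5:**
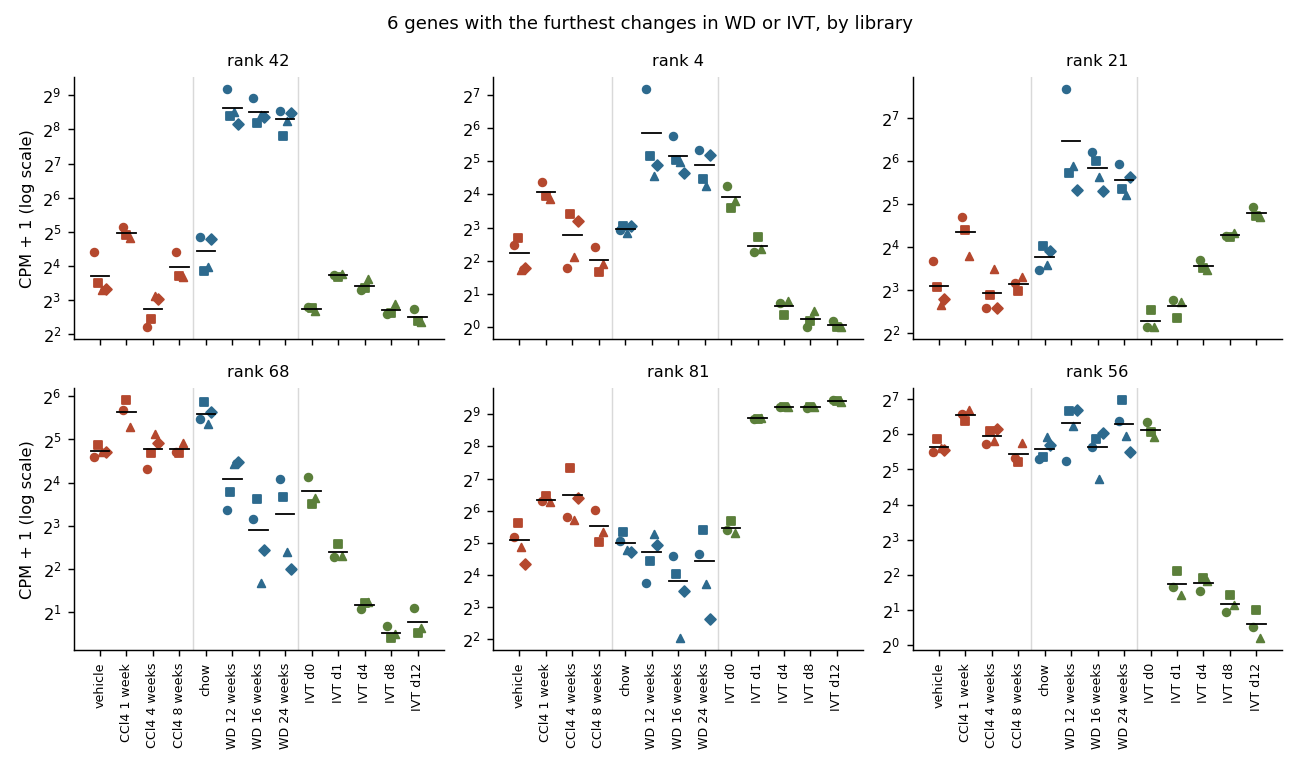
CPM + 1 on a log scale (y axis) of 6 of the 1-week genes in each library of the 13 groups (x axis), with group means as lines and marker shapes for replicate letters. Rank 42 lies between 225 and 580 CPM in WD and ranks 4 and 21 are also highest there, rank 68 falls in both WD and IVT, rank 81 rises and rank 56 falls in IVT from d1 on.

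Among the genes lost in culture, rank 56 (line 9810) was at 81.1, 66.0 and 60.5 CPM at d0 and at 2.13, 3.26 and 1.66 CPM at d1. By d12 it was at 0.415, 0.997 and 0.133 CPM. The log2FC was -5.19 ± 0.21 at d1 (SE, edgeR adjusted p = 3.54e-13) and -7.36 ± 0.26 at d12 (edgeR adjusted p = 5.02e-14). In chow and WD libraries the gene was expressed throughout. Rank 14 (line 20821) fell from 36.2, 45.9 and 33.7 CPM to 0.913, 1.27 and 1.66 CPM at d1 (log2FC -5.23 ± 0.24, SE, edgeR adjusted p = 2.27e-12), and rank 41 (line 18095) from a mean of 303 to 22.7 CPM.

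Rank 4, higher in WD than in chow, was repressed in culture. It was at 18.2, 10.97 and 12.9 CPM at d0, 3.81, 5.52 and 4.07 CPM at d1 and 0.680, 0.289 and 0.733 CPM at d4. The log2FC was -1.97 ± 0.26 at d1 (SE, edgeR adjusted p = 2.7e-06) and -4.89 ± 0.37 at d4 (edgeR adjusted p = 1.5e-09). At d12 the libraries held 1 count in all, against 196 at d0, a ratio of 307 per library total with a 95% counting interval (Clopper-Pearson) from 54.4 to 12171. Rank 68, repressed by WD, was also repressed in culture, from 16.6, 10.4 and 11.5 CPM at d0 to 1.09, 1.30 and 1.32 CPM at d4 (log2FC -3.68 ± 0.27, SE, edgeR adjusted p = 1.28e-09). Rank 6 held its level at first, with a d1 mean of 22.9 CPM beside 16.4 CPM at d0, and was at 0.692, 0.712 and 0.663 CPM at d12 (log2FC -4.85 ± 0.26, SE, edgeR adjusted p = 1.36e-11).

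Several of the top-ranked genes were high in the cells of d0 and low from d1 on. CPM of IVT and CCl4 are set side by side here with no scaling between the experiments. Rank 2 was at 330, 236 and 277 CPM at d0 and at 72.6, 71.9 and 73.5 CPM at d1. Rank 5 was at 44.4, 33.3 and 35.4 CPM at d0, above all 1-week libraries, and at 5.63, 4.39 and 4.22 CPM at d1. Rank 7 was at 29.6, 12.8 and 27.0 CPM at d0 and 5.02, 4.11 and 2.72 CPM at d1. All 3 fell at d1, by 2.28 ± 0.09, 3.32 ± 0.16 and 2.86 ± 0.31 on the log2 scale. Rank 10 went the other way, from 91.3, 69.9 and 76.8 CPM at d0 to 434, 430 and 415 CPM at d8 (log2FC 2.12 ± 0.08, SE, edgeR adjusted p = 1.3e-13).

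The 1-week libraries were numbered apart from the rest of their experiment. They carried library numbers 1903 to 1906, next to the WD libraries at 1887 to 1902, whereas vehicle, 4 weeks and 8 weeks carried 1794 to 1809. The labels do not say what the number stands for. A difference between 1 week and the other CCl4 groups cannot be told apart from one between these runs of numbers. Against vehicle, gavaged for 8 weeks, it also cannot be told apart from the shorter course of gavage and fasting. The control groups of the mouse experiments, chow and vehicle, were therefore compared.

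The 1-week genes were chosen for low vehicle and high 1-week values, so a group outside the choice is likely to lie between them, and the values of chow are a description from which nothing is read. On CPM chow was above vehicle for 92 genes, against 50.5% of the genes at the level minimum, with a median difference of 0.51 on the log2 scale (1.42-fold). The 1-week mean was above chow for 97 genes, against 58.5%, with a median of 0.59 (1.501-fold). The median difference of chow from vehicle over the 10995 genes at the level minimum was 0.01. Every 1-week library was above every chow library for 55 of the 1-week genes, against 23.7% of the genes at the level minimum. The summed share was 0.935% ± 0.0982 in chow (SD, n = 4), 1.43 times vehicle, and 1 week was 1.46 times chow.

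By edgeR's quasi-likelihood test over the 30 mouse libraries, 9 of 99 tested 1-week genes were higher in chow than in vehicle, where 2.77% of all tested genes were. In the other direction 0 of 99 were called, where 7.82% of all were. Above the log2CPM threshold, 0 were lower at an unadjusted p under 0.05 and 0 by DESeq2. Under that threshold rank 9 was called lower in chow, where it held 1 count in 4 libraries against 14.2 CPM in vehicle library D. With only the chow and vehicle libraries in the fit, 48 were higher (12.8% of all genes) and 0 lower. Vehicle values were part of the choice, which favours genes that happened to be low in vehicle, so these counts are no independent evidence of a difference between chow and vehicle.

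The highest log2FC among the called genes whose libraries did not overlap was that of rank 25, given like the next 2 with no p for the same reason. It was at 33.9, 39.1, 26.0 and 34.6 CPM in chow and at 17.01, 16.9, 14.98 and 12.5 CPM in vehicle, with a log2FC of 1.15 ± 0.20 (SE). Rank 86 (line 10611) was at 77.9, 83.7, 71.5 and 66.0 CPM in chow and 58.6, 52.7, 33.1 and 29.5 CPM in vehicle (log2FC 0.82 ± 0.16, SE). Rank 37 (line 3293) had means of 100.8 and 58.2 CPM (log2FC 0.83 ± 0.20, SE), and its call was lost without chow B. Vehicle mice were fasted overnight and gavaged with corn oil, and chow mice were not gavaged. Treatment, fasting schedule and run of library numbers thus cannot be told apart in this comparison either.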

How the data were processed

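Sorted mouse HSCs were profiled by RNA-seq in 45 libraries of 13 groups. The authors aligned reads with STAR to mm10 and deposited exon counts per gene made with HOMER (both strands, at most 3 reads per position, 1 line per gene), with no adjustment. These counts were used as deposited. All value columns were used. The command in the header of each table lists the same source libraries, those numbered for IVT, so columns were assigned by the sample titles in the second header line alone, and which library a CCl4 or WD column holds rests on those titles. Counts on both strands cannot tell a gene from an antisense partner.

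Members and lists were chosen with earlier results of these data known. The genes described singly were ranks 1 to 10, rank 100 and the next gene, and, per tested comparison, up to 3 called members with the highest and 3 with the lowest log2FC whose groups did not overlap in CPM. Rank 93 was added after its values were seen, as the gene with the most counts in vehicle. Counts of ranks 33, 44 and 46 were also added after they were seen.

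Tests used edgeR 4.0.16 in R 4.3.3 (TMM, filterByExpr, quasi-likelihood test, Benjamini-Hochberg adjustment over all tested genes), fitted once per experiment over all its groups, and over the 8 mouse groups for chow against vehicle. SE was log2FC divided by the root of the F statistic. DESeq2 1.42.0 was an alternative. Scripts were tested on simulated data. Python 3.11.15 made the summaries. Libraries of mice were taken as separate animals. p-values weigh a difference against the spread between the libraries of a fit, which in IVT may be technical only.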

Additional observations from a re-analysis of the deposited data

Results flagged for a closer look

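Of 116 groups of 4 libraries examined, 10 held a library far from the other 3, where chance gives about 1 in 20. The summed share of the 1-week genes was 0.476% in library A of 4 weeks of CCl4, against 0.819% to 0.827% in the others. Library B of 12 weeks of WD had a total of 2425443 counts, the others between 5892116 and 6045174.

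Among the single genes examined, 3 of the libraries that stood apart were library A of 12 weeks of WD. There rank 4 was at 142 CPM and rank 21 at 204 CPM, far above the other libraries, and rank 1 at 3.14 CPM was below the other 3, at 5.77 to 5.83 CPM. Chow library B stood apart for rank 1 at 12.2 CPM, for rank 37 at 131 CPM and for rank 9 at 0.162 CPM, the last being a single count. Vehicle library D held 14.2 CPM of rank 9, and vehicle library A held 20.1 CPM of rank 42, against 8.86 to 10.3 CPM in the others.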

How the results depend on the processing

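The direction of the 50 named test results was the same under every setting tried. The difference of 4 weeks from 1 week, which was not tested, was 0.126 on the log2 scale for rank 81 and 0.204 for rank 99. Without 1 library of 4 weeks it ran from -0.338 to 0.3099 and from -0.0456 to 0.391, with the lowest value without library B in both, and with TMM-scaled CPM it was -0.0301 for rank 81. These settings were chosen after the values were seen. The balance at 4 weeks of CCl4 (5 rises, 9 falls) turned with library totals, with DESeq2 and without vehicle B, 4-week A or 4-week B. Rises and falls were equal in number with DESeq2 size factors, with only the compared groups and without vehicle A. Library totals turned the sign of the median log2FC of the 1-week genes at d4 and d8, and the balance of calls at d4, d8 and d12. With no filter on low counts that median was 0.05 at d4. Under the alternatives, 236 counts of genes stayed within 1.5 times the reported count and 22 did not. At 4 weeks of CCl4 the rises numbered 12 with library totals (32.7% of all genes) and 8 with DESeq2 (27.8%). The falls there numbered 3 with library totals (19.1%) and 5 with only the compared groups (23.7%). At 12 weeks of WD the falls numbered 23 with only the compared groups (13.8% of all genes), and at 24 weeks 3 without libraries C and D (8.71%). For chow against vehicle 48 genes were higher with only the compared groups (12.8% of all genes) and 21 with DESeq2 (6.11%), and 1 was lower with no log2CPM threshold. The cause of these shifts was not tested.

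Leaving out 1 library at a time gave 4 to 10 rises and 4 to 17 falls at 4 weeks of CCl4, where 4-week libraries A, B and C and vehicle library B moved a count by over 1.5 times. It gave 3 to 8 falls at 12 weeks of WD (chow B, 12-week A), 29 to 48 at 16 weeks (chow B) and 12 to 41 at 24 weeks (12 without chow B, 24-week C or 24-week D, 15 without chow A, 41 without 24-week B). For chow against vehicle it gave 6 to 10 (1.14% to 2.54% of all genes). In the fits at 4 weeks of CCl4 the shares of all genes were 23% to 26.4% for rises and 22.6% to 26.6% for falls. For falls in WD they were 4.06% to 7.72% at 12 weeks, 21.9% to 27.5% at 16 weeks and 11.2% to 21.2% at 24 weeks.

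With the replicate letter as a replicate block, 5 genes rose and 8 fell at 4 weeks of CCl4 (24.6% and 24.5% of all genes). At 12, 16 and 24 weeks of WD 8, 46 and 30 fell (6.85%, 27.5% and 20% of all genes). Falls were 53, 43, 42 and 42 in IVT (39.2%, 39%, 38.5% and 38.9% of all genes), and 10 genes were higher in chow (2.69% of all genes). The letters did not pair the libraries: the mean correlation of deviations between libraries of the same letter was 0.01 at 4 weeks of CCl4 and at most 0.19.

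The choice of genes kept 63 of 100 with a return limit of 0.25, between 75 and 98 with the other settings tried and 78 to 93 without 1 library. Of the named results, 45 were called under all alternatives, and those of ranks 68, 95 and 51 (WD, 12 weeks), 60 (WD, 24 weeks) and 37 (chow against vehicle) were lost in some, mostly on leaving out a chow library. The small libraries limit genes near a count of 3, about 1 CPM.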
